A study of Mus musculus with 19 samples.

Results

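The genes described here encode the lysosomal proton pump and the cathepsins. They were chosen by symbol alone: every symbol beginning with Atp6v or Atp6ap, and every symbol made of Cts and 1 further letter. The rule took 30 of the 13202 genes of the bulk RNA-seq table, of which 21 are pump genes and 9 are cathepsin genes. In the single-cell data it took 44 genes of each matrix, 26 for the pump and 18 cathepsins.

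Bulk RNA-seq was made from Melan-a, an immortalised mouse melanocyte line, in 5 groups of 2 cultures: BAP1 knockout clones 1, 2, 3 and 4, each a single line derived by CRISPR editing, and the unedited BAP1 wild-type parental line. BAP1 is a nuclear deubiquitinase that removes ubiquitin from histone H2A. The labels record no treatment, and 1 batch for all cultures. Single cells came from tumours that Melan-a cells, knockout or wild-type, formed in syngeneic mice after subcutaneous or ocular injection. There were 4 matrices from 1 pooled sample, 1 for each genotype and site, and the names KO skin, KO ocular, WT skin and WT ocular are those of the files. The labels do not say how many animals each holds or which clone was injected. The question set by this design is how these genes' RNA levels differ with BAP1 genotype, between clones, between tumour sites and between tumour cells and macrophages.

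The pump, or V-ATPase, is a rotary complex. Its cytosolic V1 domain hydrolyses ATP, its membrane V0 domain carries protons into the organelle, and accessory proteins help it to assemble. The acidity it makes is what most cathepsins, the main proteases of the lysosome, need in order to mature and cleave proteins. In melanocytes the pump also acts on melanosomes, which are related to lysosomes and whose pH affects tyrosinase.

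The bulk libraries held about 30770600 to 46837300 reads, and the 2 parental cultures were closer to each other (mean chi-square per gene of 2.50) than the 2 cultures of any clone (11.3 to 79.3). Bap1 itself had 8.13% to 27.0% of the parental level in the 8 clone cultures. All 12 melanocytic markers were read, with summed levels of 1617322 to 2238295 normalised reads in the clone cultures and 2060475 and 2095971 in the parental cultures, and 7 of 12 macrophage markers, the C1q genes among them, were not in the table. The other 5 macrophage markers summed to 1076 to 2548 normalised reads in the clone cultures and 1345 and 1361 in the parental cultures. Of 6 fibroblast markers 2 were in the table, at 1835 to 4002 in the clone cultures and 3048 and 3080 in the parental cultures. The part of these cell types' RNA in the results below was not tested. Levels below are normalised reads, that is, reads divided by the library's size factor, and are not scaled by gene length, so they are compared between cultures and not between genes. Differences are clone minus parental on the deposited log2-like scale, with their standard error, and p-values are from limma with Benjamini-Hochberg adjustment over the 10803 genes tested. Of the 30 members, 27 passed the filter on low values (20 pump genes and 7 cathepsins), and Ctsf, Ctsk and Atp6v1c2 did not. The labels do not say how the 2 cultures of a line were separated, so these p-values measure only the spread between cultures of a line. That spread is pooled over the 5 lines for each gene, although the lines' own spreads were unequal. A culture with fewer cells of a type and one with less RNA per cell cannot be told apart in bulk RNA.

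Among the 27 tested members, 1 was called for clone 1 (1 higher), 5 for clone 2 (5 lower), 10 for clone 3 (4 higher, 6 lower) and 8 for clone 4 (4 higher, 4 lower). The same threshold called 3.5% of all genes in clone 1, 26.1% in clone 2, 39.8% in clone 3 and 36.5% in clone 4, so the members were called about as often as other genes. By direction, the higher calls were 1.15%, 12%, 19.9% and 19.3% of all genes for clones 1 to 4, and the lower calls 2.35%, 14.1%, 20% and 17.2%. No member was called with 1 sign in all 4 clones, against 2.1% of all genes (0.528% higher, 1.57% lower), and edgeR's quasi-likelihood test also gave 0. At an unadjusted limma p under 0.05, 0 members had 1 sign in all 4 clones, against 7.94% of all genes. With the clones taken as the units against the parental line, limma called 0 members, with 0 at an unadjusted p under 0.05, against 0.0% and 6.21% of all genes. Among the 4 clones themselves, 12 of the 27 tested members differed by the limma F test, about the same share as over all genes (44.5%). The 4 comparisons share the 2 parental cultures. Without parental culture 1 the numbers called were 0, 1, 4 and 5 for clones 1 to 4, and without parental culture 2 they were 0, 0, 4 and 4. Leaving out culture 1 or 2 of clone 3 gave 4 and 5 in that clone, and leaving out culture 2 of clone 2 gave 2 there.

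**Figure D1:**
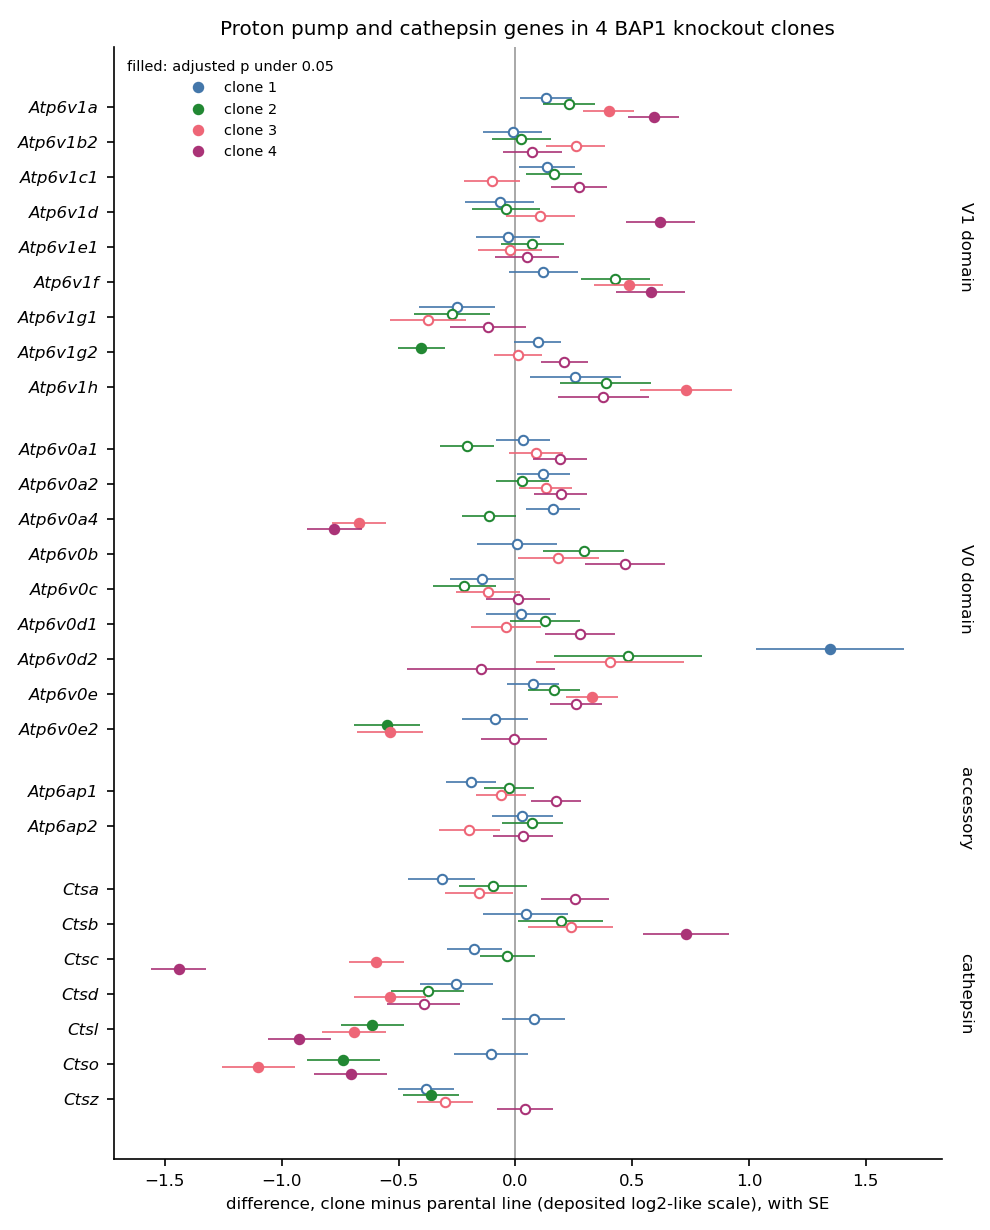
Difference of each tested member from the parental line (x axis, deposited log2-like scale, with standard error) in the 4 knockout clones, grouped by domain. Filled points have an adjusted p under 0.05. The cathepsins Ctsc, Ctsl and Ctso lie furthest to the left, down to -1.44 for Ctsc in clone 4, and the only point above 1 is Atp6v0d2 in clone 1. The scale shrinks differences of genes with few reads, so this order is not that of the reads. Mean reads were 30.3% of parental for Ctso in clone 3. In clone 4 they were 34.6% for Ctsc, 39.3% for Atp6v0a4 and 52.9% for Ctsl.

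Several cathepsins fell in clones 2, 3 and 4. Of the 7 tested, 0, 3, 4 and 3 fell in clones 1 to 4, where 2.35%, 14.1%, 20% and 17.2% of all genes fell. Of these cathepsins 1 rose, in clone 4, where 19.3% of all genes did. Their median difference was -0.18 in clone 1, -0.36 in clone 2, -0.54 in clone 3 and -0.39 in clone 4, where the median of all genes was -0.02, 0.03, 0.01 and 0.04.

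Ctsl (chromosome 13, 64361890 to 64370772, GRCm38.p6) encodes cathepsin L, a cysteine endopeptidase. It had 50426 and 48066 normalised reads in the clone 1 pair of cultures, 28971 and 31966 in the clone 2 pair, 28592 and 29039 in the clone 3 pair and 27784 and 21540 in the clone 4 pair, against 46485 and 46781 in the parental pair. All 6 cultures of clones 2 to 4 lay below both parental cultures, and both cultures of clone 1 lay above them. The difference was -0.61 ± 0.14 in clone 2 (limma, adjusted p = 0.00833), -0.69 ± 0.14 in clone 3 (limma, adjusted p = 0.00279) and -0.93 ± 0.14 in clone 4 (limma, adjusted p = 0.000576). In clone 2 the call was lost without either parental culture (limma, highest adjusted p = 0.0737).

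Ctso (chromosome 3, 81932601 to 81956725) encodes cathepsin O, a cysteine protease. It had 555 and 342 normalised reads in the clone 1 pair of cultures, 214 and 242 in the clone 2 pair, 124 and 169 in the clone 3 pair and 247 and 226 in the clone 4 pair, against 461 and 508 in the parental pair. The 2 cultures of clone 1 lay on both sides of the parental pair, and all other clone cultures lay below it. The difference was -1.10 ± 0.16 in clone 3 (limma, adjusted p = 0.000436). In clone 2 it was -0.74 ± 0.16 and in clone 4 -0.70 ± 0.16 (limma, adjusted p = 0.00679 and 0.00602), and both calls were lost without parental culture 2, at 0.0631 and 0.0541.

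Ctsc (chromosome 7, 88278024 to 88315861) encodes cathepsin C, a dipeptidyl peptidase that activates serine proteases of leukocytes. It had 3972 and 4526 normalised reads in the clone 1 pair of cultures, 4577 and 4824 in the clone 2 pair, 3094 and 3157 in the clone 3 pair and 1853 and 1478 in the clone 4 pair, against 4737 and 4902 in the parental pair. Clone 4 was lowest in both cultures, and clone 2 overlapped the parental line. The difference was -0.60 ± 0.12 in clone 3 (limma, adjusted p = 0.00286) and -1.44 ± 0.12 in clone 4 (limma, adjusted p = 1.25e-05). Ctsc had the smallest F test p of all members among the clones (limma, adjusted p = 6.17e-05).

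Ctsd encodes cathepsin D, the main aspartic protease of the lysosome. Its 8 clone cultures held between 81478 and 108364 normalised reads, and all lay below the 2 parental cultures, which held 126178 and 124543. It was called in clone 3, at -0.54 ± 0.16 (limma, adjusted p = 0.0195), and that call was lost when any of 4 single libraries was left out. The differences of -0.25, -0.38 and -0.39 in clones 1, 2 and 4 did not pass the threshold.

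Ctsb, for the cysteine protease cathepsin B, was the 1 cathepsin called higher. It had 90211 and 71482 normalised reads in the clone 1 pair of cultures, 91380 and 86966 in the clone 2 pair, 89180 and 94522 in the clone 3 pair and 155141 and 107842 in the clone 4 pair, against 78874 and 76938 in the parental pair. Clones 2, 3 and 4 lay above the parental pair in both cultures and clone 1 on both sides of it. The 2 cultures of clone 4, the one clone called, differed widely. Its difference was 0.73 ± 0.18 (limma, adjusted p = 0.0107), a call lost in 4 of 16 alternatives, with adjusted p-values up to 0.0767.

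Ctsz, for the carboxypeptidase cathepsin Z, had 37257 and 38347 normalised reads in the clone 1 pair of cultures, 36063 and 40937 in the clone 2 pair, 37998 and 42200 in the clone 3 pair and 51776 and 49889 in the clone 4 pair, against 49574 and 49222 in the parental pair. Clones 1 to 3 lay below the parental pair and clone 4 above it, but the one call, in clone 2 at -0.36 ± 0.12 (limma, adjusted p = 0.0483), was lost in 7 of 16 alternatives, with adjusted p-values up to 0.241. Ctsa encodes cathepsin A, a serine carboxypeptidase that also protects other lysosomal enzymes. It had 24727 and 30134 normalised reads in the clone 1 pair of cultures, 28212 and 35907 in the clone 2 pair, 29391 and 31639 in the clone 3 pair and 41072 and 40172 in the clone 4 pair, against 34291 and 33736 in the parental pair. It was called in no clone, with differences of -0.32, -0.10, -0.16 and 0.25.

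**Figure D2:**
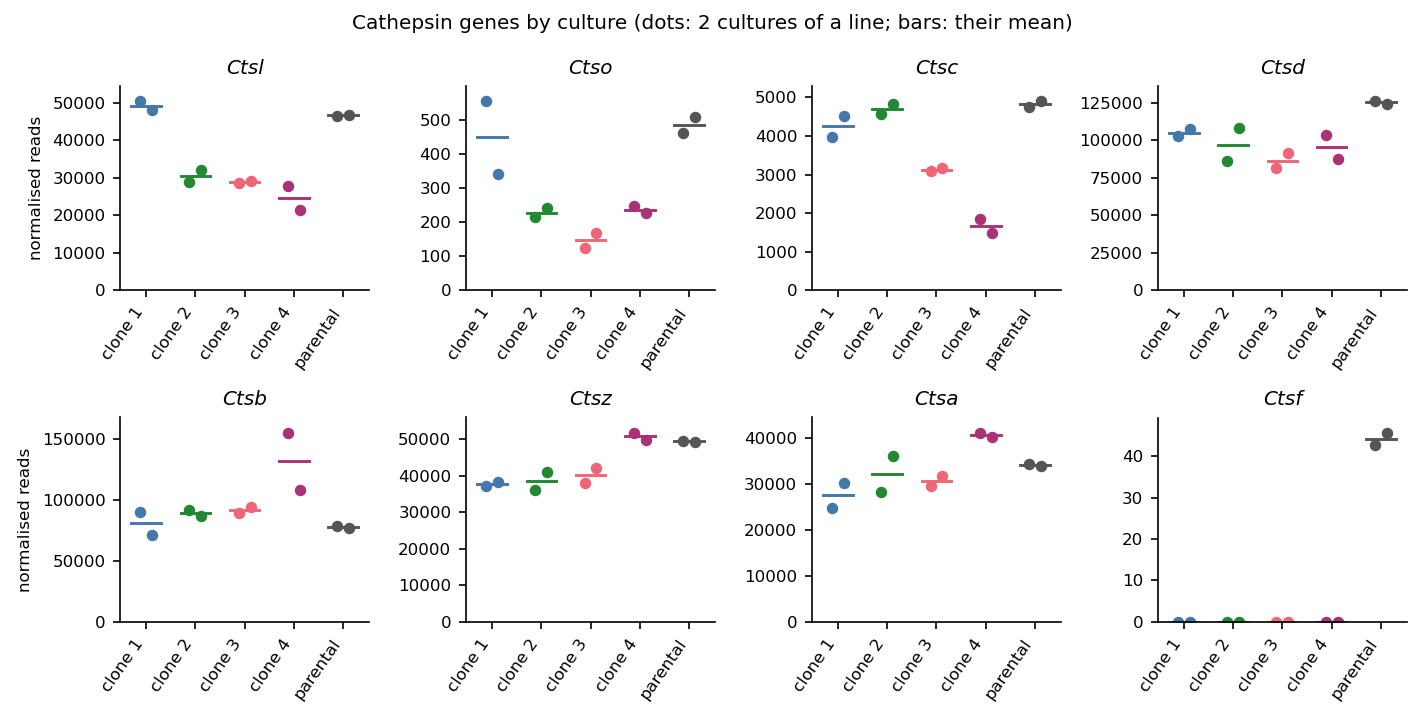
Normalised reads (y axis, from 0) of 8 cathepsin genes in each culture, the clones on the left and the parental line on the right, with dots for cultures and bars for the mean of the 2. Ctsl and Ctso are low in clones 2 to 4, Ctsc is lowest in clone 4, and Ctsf has reads only in the parental cultures.

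Ctsf, for the cysteine protease cathepsin F, stood apart from the other members and was singled out after its values had been seen. It had 45 and 52 reads in the 2 parental cultures (42.9 and 45.8 normalised reads) and 0 reads in all 8 clone cultures. With a floor of 3 counts per library, it was at least 11.7-fold lower in the clones. It was the only one of the 13202 genes (0.00757%) with reads in both parental cultures and none in any clone culture. No gene of the table had fewer than 50 reads in total, so genes with fewer could not be counted. By the same measure, 2 genes were read in clone 2 only, and 0 in clone 1, 3 or 4 only. It had been left out by the filter. Without a filter, limma gave a difference of -0.95 ± 0.08 in each clone, with adjusted p-values between 8.70e-06 and 9.73e-05. The highest adjusted p over the alternatives was 0.0114, by edgeR's quasi-likelihood test. All 8 clone cultures lie at the lowest value of the scale, so within lines only the 2 parental cultures differ. The limma p-values for Ctsf thus do not measure a spread between cultures of a clone. These alternatives for Ctsf were chosen after seeing the data.

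The gene lies on chromosome 19 at 4855165 to 4860918 (GRCm38.p6, RefSeq). Of the genes beside it, Ccs had 1046 to 1266 normalised reads in the clones, all below the 1403 and 1415 of the parental cultures. Further off, Rbm14 had 477 to 852 normalised reads in the clones and 632 and 637 in the parental cultures, and Zdhhc24 had 581 to 771 in the clones and 615 in both parental cultures. The nearest genes of the table on either side, Ccdc87 and Actn3, had at most 20.2 normalised reads in any culture. Ccdc87 had 0 to 9.57 in the clones against 12.4 and 20.2 in the parental cultures. Actn3 had 1.15 to 19.9 in the clones against 2.86 and 8.80. Bbs1, further along, had 78.2 to 275 in the clones against 275 and 222. Whether the DNA at Ctsf differs in the clones was not tested, since the exome data were not analysed here.

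**Figure D3:**
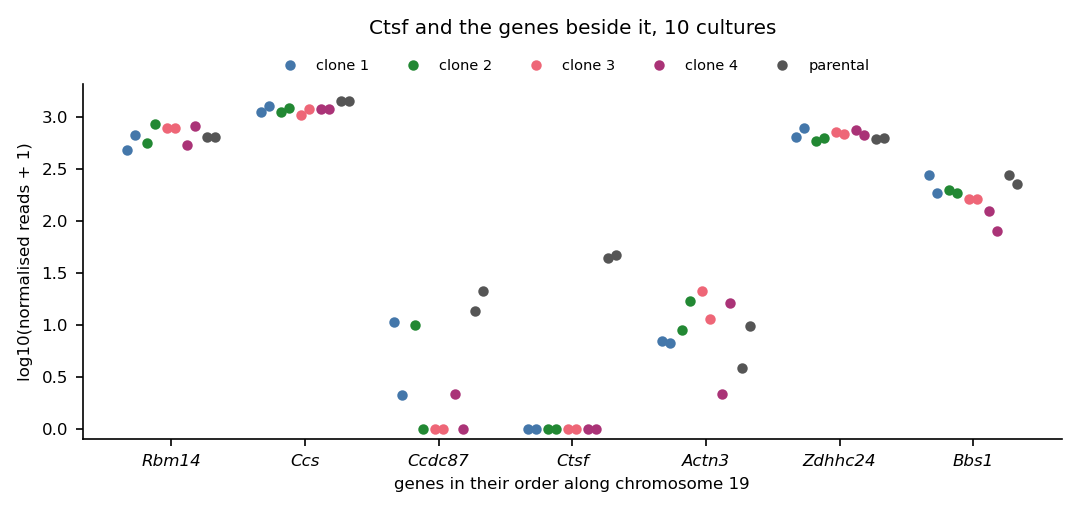
Reads of Ctsf and 6 genes beside it (y axis, log10 of normalised reads plus 1), in their order along chromosome 19, with 1 dot for each of 10 cultures. Ctsf is at 0 in the 8 clone cultures and near 44.3 reads in the parental line, whereas Rbm14, Ccs, Actn3, Zdhhc24 and Bbs1 have reads in all 10.

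Promoter windows from RefSeq (GRCm38.p6), which run from 250 bases before to 50 bases after a start site, were found for 23 of the 30 members, in 27 windows. They were searched on both strands for CACGTG, the E-box core bound by MITF, TFEB and other basic helix-loop-helix factors, and for TCACGTG and TCATGTG, which MITF and TFEB bind in many lysosomal and pigment genes. CACGTG is a palindrome, and every TCACGTG holds it. CACGTG was in 8 of the 27 windows (29.6%), against 7.15% of all 32851 windows of the same length. TCACGTG was in 6 (22.2%), against 3.77%, and TCATGTG in 2 (7.41%), against 3.77%. A match is a description of the letters and not a site shown to be bound. The table's start site was the gene's own first base in 15 of the 27 windows and lay inside the gene in 12. Printed below, 5′ to 3′, are the 250 bases before the first base of the 2 cathepsin genes that were lower in all 8 clone cultures, Ctsf and Ctsd, both holding CACGTG. Capitals mark CACGTG, with the T before it or the A after it where these complete TCACGTG on either strand.
Ctsf, chr19:4854915-4855164, plus strand: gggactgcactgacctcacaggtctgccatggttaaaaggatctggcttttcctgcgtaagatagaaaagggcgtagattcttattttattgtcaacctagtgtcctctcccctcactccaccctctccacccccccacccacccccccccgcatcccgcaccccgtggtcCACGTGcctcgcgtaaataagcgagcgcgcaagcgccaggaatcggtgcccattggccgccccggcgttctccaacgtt
Ctsd, chr7:142387828-142388077, minus strand: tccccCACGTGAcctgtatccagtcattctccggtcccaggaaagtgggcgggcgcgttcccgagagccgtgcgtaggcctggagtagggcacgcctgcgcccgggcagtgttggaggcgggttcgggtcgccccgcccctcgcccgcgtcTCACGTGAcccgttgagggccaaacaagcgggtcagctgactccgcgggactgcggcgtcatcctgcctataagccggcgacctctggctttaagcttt
The first base of CACGTG lies 79 bases before the start in Ctsf, and 245 and 98 in Ctsd. CACGTG was also in the windows of Ctsl and Atp6v1a, which are not printed because their start sites in the table lie 252 and 443 bases inside the gene. Windows of Ctsa, Atp6v0b and Atp6v0d1, called in no clone, and of Atp6v0e, called in clone 3, held it too. The start site of that Ctsa window lies 901 bases inside the gene. The Ctsa window at the gene's first base held none of these motifs. The windows of Ctsc and Ctso, which were called lower in some clones, held none of them either.

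The pump genes did not move as 1 group. Of the 20 tested, the median difference was 0.03 in clone 1, 0.05 in clones 2 and 3 and 0.19 in clone 4. With quantile normalisation these medians were 0.05, -0.01, -0.02 and 0.02, so the sign in clones 2 and 3 depends on the scaling. Of 9 tested V1 genes, 0, 0, 3 and 3 rose and 0, 1, 0 and 0 fell in clones 1, 2, 3 and 4. Of 9 tested V0 genes, 1, 0, 1 and 0 rose and 0, 1, 2 and 1 fell. Over all genes, 1.15%, 12%, 19.9% and 19.3% rose and 2.35%, 14.1%, 20% and 17.2% fell in the same clones. Neither accessory gene, Atp6ap1 or Atp6ap2, was called in any clone, with differences between -0.20 and 0.17.

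In V1, Atp6v1a (chromosome 16, 44085402 to 44139702) encodes the catalytic A subunit, which hydrolyses ATP. It had 18041 and 17939 normalised reads in the clone 1 pair of cultures, 20561 and 18076 in the clone 2 pair, 22403 and 21027 in the clone 3 pair and 25770 and 23945 in the clone 4 pair, against 16403 and 16430 in the parental pair. All 8 clone cultures lay above both parental cultures. It rose by 0.40 ± 0.11 in clone 3 (limma, adjusted p = 0.0157) and by 0.59 ± 0.11 in clone 4 (limma, adjusted p = 0.00228). The call in clone 3 was lost with quantile normalisation, at 0.22 and an adjusted p of 0.153.

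Atp6v1f encodes subunit F of the central rotor. It had 13571 and 14010 normalised reads in the clone 1 pair of cultures, 15057 and 19429 in the clone 2 pair, 16751 and 18954 in the clone 3 pair and 21193 and 17094 in the clone 4 pair, against 13035 and 12322 in the parental pair. All clone cultures again lay above the parental pair, and it rose by 0.49 ± 0.15 in clone 3 and by 0.58 ± 0.15 in clone 4 (limma, adjusted p = 0.0247 and 0.0119). In all, 4 of the 30 members had 8 clone cultures on 1 side of both parental cultures, Atp6v1a and Atp6v1f above and Ctsd and Ctsf below, against 22.1% of all genes.

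Atp6v1d, for the rotor subunit D, had 11066 and 10536 normalised reads in the clone 1 pair of cultures, 11222 and 10793 in the clone 2 pair, 12130 and 12292 in the clone 3 pair and 20917 and 14665 in the clone 4 pair, against 11200 and 11447 in the parental pair. It rose in clone 4 only, by 0.62 ± 0.15 (limma, adjusted p = 0.00816), and the F test among clones gave an adjusted p of 0.011 (limma). The gene lies on chromosome 12, whose genes had a median difference of 0.27 in clone 4, and with values centred by chromosome the difference was 0.35 (limma, adjusted p = 0.0672). Atp6v1h, for the regulatory subunit H, rose in clone 3 by 0.73 ± 0.20 (limma, adjusted p = 0.0134), with 11231 and 11283 normalised reads there against 6674 and 6745 in the parental cultures. Atp6v1g2 encodes a stalk subunit known from neurons. It fell in clone 2, by 0.40 ± 0.10 on the log2-like scale (limma, adjusted p = 0.0153), with 460 and 470 normalised reads against 683 and 655 in the parental cultures. The other V1 genes were called in no clone: differences lay between -0.01 and 0.26 for Atp6v1b2, -0.10 and 0.27 for Atp6v1c1, -0.03 and 0.07 for Atp6v1e1, and -0.37 and -0.12 for Atp6v1g1. Atp6v1c2, below the filter, had 10.4 to 49.3 normalised reads in the clones and 34.3 and 27.3 in the parental cultures.

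In V0, 4 genes were called in at least 1 clone. Atp6v0a4 (chromosome 6, 38048483 to 38124586) encodes the a4 subunit, known from acid-secreting kidney cells. It had 396 and 331 normalised reads in the clone 1 pair of cultures, 241 and 308 in the clone 2 pair, 136 and 143 in the clone 3 pair and 117 and 125 in the clone 4 pair, against 288 and 328 in the parental pair. The 4 cultures of clones 3 and 4 lay far below the rest, and the differences were -0.67 ± 0.12 in clone 3 and -0.77 ± 0.12 in clone 4 (limma, adjusted p = 0.00137 and 0.000646).

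Atp6v0d2 (chromosome 4, 19876838 to 19922566) encodes the d2 subunit, known from osteoclasts and macrophages. It had 2519 and 1872 normalised reads in the clone 1 pair of cultures, 1352 and 910 in the clone 2 pair, 1044 and 1046 in the clone 3 pair and 1099 and 369 in the clone 4 pair, against 731 and 759 in the parental pair. Clones 1 to 3 lay above the parental pair, and the 2 cultures of clone 4 lay on both sides of it. Its rise of 1.35 ± 0.32 in clone 1 was the one call there (limma, adjusted p = 0.0469), and it was lost in 10 of 16 alternatives, with adjusted p-values up to 0.301. Atp6v0e2, for an e subunit, had 9613 and 8644 normalised reads in the clone 1 pair of cultures, 7340 and 5864 in the clone 2 pair, 6327 and 6927 in the clone 3 pair and 8649 and 10771 in the clone 4 pair, against 9984 and 9421 in the parental pair. It fell in clones 2 and 3, at -0.55 ± 0.14 and -0.54 ± 0.14 (limma, adjusted p = 0.0166 and 0.0123). Atp6v0e, for the other e subunit, rose in clone 3 by 0.33 ± 0.11 (limma, adjusted p = 0.0382), a call lost in 5 of 16 alternatives. The c subunit gene Atp6v0c, whose product forms the proton-carrying ring, and Atp6v0a1, Atp6v0a2, Atp6v0b and Atp6v0d1 were called in no clone.

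Of the 24 calls, 8 held under all 16 alternatives: Ctsl and Ctsc and Atp6v0a4 in clones 3 and 4, Ctso in clone 3 and Atp6v1a in clone 4. A further 9 were lost only when 1 parental culture or 1 culture of a clone was left out: Atp6v0e2 in clones 2 and 3, Atp6v1f in clones 3 and 4, Atp6v1h and Ctsd in clone 3, Ctsl in clone 2 and Ctso in clones 2 and 4. The other 7, lost in at least 1 alternative that used all libraries, were Atp6v0d2 in clone 1, Atp6v1g2 and Ctsz in clone 2, Atp6v0e and Atp6v1a in clone 3, and Atp6v1d and Ctsb in clone 4.

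Other genes of the pathway, counted over lists of known genes, were called in both directions. Over all genes, 1.15%, 12%, 19.9% and 19.3% rose and 2.35%, 14.1%, 20% and 17.2% fell in clones 1 to 4. These shares stand beside every list below. Of 12 tested pump assembly and regulator genes outside the rule, 1, 3, 3 and 4 rose and 0, 1, 4 and 3 fell in clones 1 to 4. Ncoa7, whose product binds the pump, was the 1 gene of these lists called with 1 sign in all 4 clones: its differences were 0.61 ± 0.12, 1.13 ± 0.12, 0.72 ± 0.12 and 0.88 ± 0.12 (limma, adjusted p = 0.0235, 0.00012, 0.00118 and 0.000383). Tcirg1, for the a3 subunit, fell in clones 2 and 3, at -0.88 and -0.62 (limma, adjusted p = 0.000359 and 0.00168), and had 0.26 in clone 4. The assembly factor gene Vma21 fell in clones 3 and 4, at -0.60 and -0.44 (limma, adjusted p = 0.00654 and 0.0311).

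Of 4 tested inhibitor genes of cathepsins, 0, 1, 2 and 2 rose and 0, 2, 2 and 2 fell. Cst3, for the secreted inhibitor cystatin C, fell in clones 2, 3 and 4, at -0.97 ± 0.18, -1.01 ± 0.18 and -1.06 ± 0.18 (limma, adjusted p = 0.00339, 0.00156 and 0.00136). Cstb, for the intracellular inhibitor stefin B, rose in the same clones, at 0.81 ± 0.18, 0.63 ± 0.18 and 0.54 ± 0.18 (limma, adjusted p = 0.00933, 0.0195 and 0.0401). Serpinb6a, a serine protease inhibitor gene, rose in clones 3 and 4, at 0.29 and 0.52 (limma, adjusted p = 0.0359 and 0.00254).

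Of 38 other lysosomal hydrolase and cofactor genes tested, 0, 1, 5 and 11 rose and 0, 8, 11 and 8 fell. Ctbs, for chitobiase, which trims glycan remnants, fell in clones 2, 3 and 4, at -1.14 ± 0.13, -1.13 ± 0.13 and -1.14 ± 0.13 (limma, adjusted p = 0.000167, 0.000108 and 0.000104). Galc, for galactosylceramidase, fell in clones 2 and 3, at -0.92 and -0.35 (limma, adjusted p = 0.000182 and 0.0232), and the acid phosphatase gene Acp2 had differences between -0.25 and -0.21 with no call. Of 17 tested lysosomal membrane protein genes, 0, 0, 3 and 4 rose and 1, 2, 6 and 2 fell. Cln3 fell in clones 2, 3 and 4, at -0.93, -0.33 and -1.42 (limma, adjusted p = 0.000262, 0.038 and 1.05e-05). Npc1, for the cholesterol exporter, fell in clone 1, at -0.62 (limma, adjusted p = 0.0173), and Lamp1 fell in clone 3, at -0.56 (limma, adjusted p = 0.0113).

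Among 15 genes of the MiT/TFE factors, which drive transcription of lysosomal genes, and of lysosomal mTORC1 signalling, 0, 1, 5 and 5 rose and 0, 0, 0 and 1 fell. Flcn, for folliculin, which acts on the RagC and RagD GTPases, rose in clones 2, 3 and 4, at 0.36, 0.62 and 0.30 (limma, adjusted p = 0.0267, 0.00114 and 0.0412). Of the 4 factor genes themselves, Tfec rose in clones 3 and 4, at 0.94 and 0.88 (limma, adjusted p = 0.000159 and 0.000263), Tfeb in the same clones, at 0.48 and 0.77 (limma, adjusted p = 0.0213 and 0.00214), and Tfe3 in clone 3, at 0.46 (limma, adjusted p = 0.0129). Mitf, for the melanocyte factor of that family, had differences of 0.24, 0.11, 0.10 and 0.25 with no call, and Lamtor2 was not called either. Of 10 genes for sorting to lysosomes, 0, 5, 6 and 2 rose and 0, 0, 1 and 0 fell. The adaptor genes Gga3 and Gga2 rose in clones 2 and 3, Gga3 at 0.48 and 0.65 (limma, adjusted p = 0.0136 and 0.00185) and Gga2 at 0.59 and 0.56 (limma, adjusted p = 0.00433 and 0.00372). Sort1, for sortilin, was called in no clone.

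In the single-cell matrices, cells were clustered without the members and without the genes of those lists, and clusters were named from fixed markers. There is 1 matrix for each genotype and site, so differences between matrices have no test. Values are CPM, the counts of a gene over those of all genes, summed over a class, and 95% intervals cover counting error only. The melanocytic-like class held 9059 cells in KO skin, 4819 in KO ocular and 5405 in WT skin. The macrophage-like class held 1867, 607 and 1651 cells in these matrices and 1590 in WT ocular. No cluster of WT ocular kept the melanocytic name, and its cluster 0, of 4930 cells, which had the highest melanocytic marker level but Ttr among its leading genes, is given by number. WT ocular lists 32285 features and the other matrices 19059, and it was made with another Cell Ranger version, so its levels are not set against theirs.

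Some melanocytic RNA was counted in macrophage-like cells. The 12 melanocytic markers together reached 45.7% of their melanocytic-like level there in KO skin, 27.0% in KO ocular and 15.1% in WT skin. The 12 macrophage markers in melanocytic-like cells reached 1.29%, 0.635% and 1.33% of their macrophage-like level in the same matrices. No marker was at 0 in either class. Differences between the classes are read with these shares in view, and their part in each was not tested. Bap1 had 47.7 CPM in melanocytic-like cells of KO skin, 33.4 in KO ocular and 41.8 in WT skin, and where the counted sequence lies relative to the edit is not known, so this does not check the labels. No full barcode was shared between matrices. The first 16 bases, which identify the droplet in the 3 matrices of 19059 features, were shared by 2417 barcodes of KO skin and WT skin, 2014 of KO ocular and KO skin and 1793 of KO ocular and WT skin.

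Most of the members that set macrophage-like cells apart were cathepsins, though not every cathepsin did. Of 11 cathepsins reaching 10 CPM in the higher class, 7 in KO skin, 8 in KO ocular and 9 in WT skin were at least 4-fold higher in macrophage-like cells. At least 4-fold differences between macrophage-like and melanocytic-like cells were found for 8 of 30 members in KO skin (8 higher in macrophage-like cells), 10 of 31 in KO ocular (9 higher, 1 lower) and 12 of 31 in WT skin (9 higher, 3 lower), among members reaching 10 CPM in the higher class. At Leiden resolution 0.5, a coarser clustering, the number in WT skin was 8, since Ctsd and the 3 lower members were no longer past 4-fold. The other members of the 44 stayed under that level in both classes. The same limits took 8.87% of all genes in KO skin (8.84% higher, 0.0305% lower), 12.8% in KO ocular (9.77% higher, 2.98% lower) and 19.2% in WT skin (9.43% higher, 9.78% lower). Ctsb, Ctsc, Ctsf, Ctsh, Ctsl, Ctso and Ctss were at least 4-fold higher in macrophage-like cells of all 3 matrices. Summed over the 18 genes, cathepsins reached 34572 CPM in macrophage-like cells against 6226 in melanocytic-like cells of KO skin, 42795 against 8777 in KO ocular and 50679 against 8806 in WT skin.

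Ctss, for cathepsin S, which processes the invariant chain for antigen presentation, had 10727 CPM in macrophage-like cells against 108 in melanocytic-like cells of KO skin, a ratio of 99.4 (interval 97.1 to 102). In KO ocular it had 9853 against 24.2 CPM, and in WT skin 10260 against 80.3. Ctsh, for the aminopeptidase cathepsin H, had 647 against 4.91 CPM in KO skin, 833 against 1.86 in KO ocular and 1014 against 5.20 in WT skin. For both genes the level in melanocytic-like cells was a smaller share of the macrophage-like level than that of the macrophage markers. The part of macrophage RNA in it was not tested.

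Ctsb had 12294 CPM in macrophage-like against 1480 in melanocytic-like cells of KO skin, 17308 against 2218 in KO ocular and 18833 against 2612 in WT skin. Ctsl had 2625 against 257 CPM in KO skin, 3126 against 385 in KO ocular and 4067 against 653 in WT skin. Ctsc had 428 against 70.3 CPM, 533 against 94.3 and 536 against 110 in the same order of matrices, and Ctso 60.7 against 3.68, 57.8 against 3.36 and 71.7 against 10.2. These levels in melanocytic-like cells were larger shares of the macrophage-like level than those of the macrophage markers.

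Ctsf was low everywhere. It had 11.1 CPM in macrophage-like cells against 0.215 in melanocytic-like cells of KO skin (15 UMIs in the second), 13.5 against 0.101 in KO ocular (8 UMIs) and 15.2 against 0.181 in WT skin (10 UMIs). The melanocytic-like levels were close to the share given by the macrophage markers, and the part of macrophage RNA in them was not tested. In WT skin the ratio between the classes was 84.4, and 44.7 with the mean of per-cell CPM. On these UMIs the ratio of KO skin over WT skin in melanocytic-like cells was 1.19, with an interval of 0.50 to 2.96.

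Ctsa, Ctsz and Ctsd were read in both classes, with smaller ratios. Ctsa had 1851 CPM in macrophage-like cells against 1244 in melanocytic-like cells of KO skin. In KO ocular it had 1922 against 1441 CPM, and in WT skin 2418 against 1031. Ctsz had 3092 CPM in macrophage-like cells against 2145 in melanocytic-like cells of KO skin, 2963 against 3064 in KO ocular and 3636 against 2323 in WT skin. Ctsd had 2290 against 750 CPM in KO skin, 5806 against 1467 in KO ocular and 8594 against 1974 in WT skin, and was past 4-fold in WT skin alone (4.35, and 3.65 at Leiden resolution 0.5), with 3.05 in KO skin and 3.96 in KO ocular.

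Ctsk had 545 CPM in macrophage-like against 161 in melanocytic-like cells of KO skin (3.38-fold), 378 against 77.6 in KO ocular (4.87-fold) and 1231 against 5.65 in WT skin (218-fold). With the mean of per-cell CPM the last ratio was 95.1. The 2 macrophage-like clusters of WT skin held 152 and 2606 CPM of Ctsk, so the level there rests on 1 of them.

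Among pump genes, Atp6v0c and Atp6v1g1 were highest in melanocytic-like cells. They had 727 and 598 CPM in KO skin, 1333 and 839 in KO ocular and 1596 and 733 in WT skin. Between the 2 classes pump genes had similar levels. Their median ratio of macrophage-like over melanocytic-like CPM was 1.12 in KO skin, 1.00 in KO ocular and 0.888 in WT skin, where the median of all genes was 0.791, 0.762 and 0.761. On the high side stood Atp6v0d2, with 280 against 46.5 CPM in KO skin (6.03-fold) and 559 against 127 in KO ocular (4.41-fold), and 281 against 157 in WT skin. On the low side stood Atp6v0a4, with 2.61 against 11.2 CPM in KO ocular and 2.57 against 19.9 in WT skin, and in WT skin also Atp6v0e2, with 27.9 against 180, and Atp6v1c2, with 3.15 against 21.2. At Leiden resolution 0.5 none of the 3 was past 4-fold in WT skin: the ratio was 0.31 for Atp6v0a4 (0.13 at resolution 1.0), 0.35 for Atp6v0e2 (0.16) and 0.36 for Atp6v1c2 (0.15). In KO ocular the ratio of Atp6v0a4 was 0.23, and 0.12 without the 5% of cells with the highest doublet scores.

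In WT ocular, 3 of 27 members were at least 4-fold apart between macrophage-like cells and cluster 0, against 6.69% of all genes: Ctss with 774 against 10.6 CPM, Ctsh with 121 against 3.17 and Ctsc with 267 against 38.4. Ctsb, at 1740 against 532 CPM, was 3.27-fold apart. Without the 5% of cells with the highest doublet scores, where another cluster had the highest melanocytic marker level, the ratio was 12.6 for Ctss (73.1 otherwise) and 13.3 for Ctsh (38.3). The melanocytic markers in these macrophage-like cells reached 58.9% of their level in cluster 0.

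**Figure D4:**
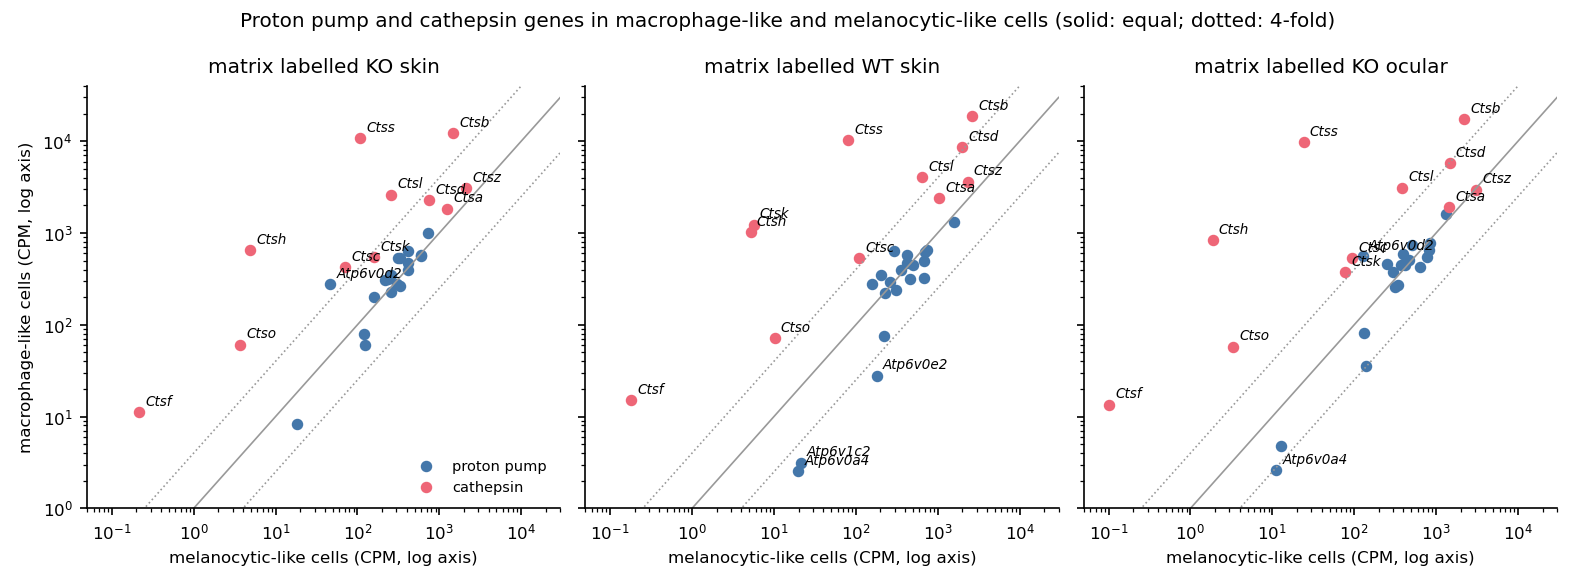
CPM of each member in macrophage-like cells (y axis, log) against melanocytic-like cells (x axis, log) in the matrices labelled KO skin, WT skin and KO ocular. The solid line marks equal levels and the dotted lines 4-fold. Blue pump genes lie near the solid line, and red cathepsins such as Ctss and Ctsh lie far above it.

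Between the knockout and wild-type skin matrices, most members were lower in melanocytic-like cells of KO skin. Of 29 members, 1 was at least 2-fold higher and 7 were at least 2-fold lower, and the same limit took 13.5% of all genes on the high side and 8.32% on the low side (21.8% in all). The median ratio was 0.65 for 20 pump genes and 0.64 for 9 cathepsins, against 1.14 for all genes. The 12 melanocytic markers together stood lower as well, at 43404 CPM in KO skin and 63482 in WT skin, and median depth was 4481 UMIs per cell in KO skin and 6101 in WT skin. Their part in these ratios was not tested, and with 1 matrix for each, genotype cannot be told apart from tumour or library.

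Ctsk, for cathepsin K, the collagen-cleaving protease of osteoclasts, went the other way. In melanocytic-like cells it had 161 CPM in KO skin (interval 158 to 164) against 5.65 in WT skin (5.04 to 6.31), a ratio of 28.5 (25.5 to 32.0). The 8 melanocytic-like clusters of KO skin ranged between 68.1 and 351 CPM, and the 5 of WT skin between 3.39 and 10.0. Clusters are parts of the same matrix and not replicates. The ratio lay between 15.1 and 31.1 in the alternatives. KO ocular had 77.6 CPM, with 50.9 to 130 in its 7 clusters. In melanocytic-like cells the macrophage markers together had 202 CPM in KO skin, 137 in KO ocular and 278 in WT skin. The 6 fibroblast markers had 89.7, 44.2 and 134 CPM in the same order. Of all Ctsk UMIs, melanocytic-like cells held 55.6% in KO skin, 51.9% in KO ocular and 1.69% in WT skin, and macrophage-like cells 30.1%, 35.6% and 80.4%. Other classes of KO skin also had Ctsk, with 148 CPM in neutrophil-like cells and 58.9 in T and NK-like cells, against 18.6 and 4.17 in WT skin. Unnamed clusters had 335 CPM in KO skin and 194 in WT skin. What macrophage-like cells or these other cells give to the melanocytic-like level was not tested. In the cultures Ctsk had at most 28.5 normalised reads and was called in no clone without the filter (limma, lowest adjusted p = 0.0707, in clone 2).

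The 7 members lower in KO skin were cathepsins and pump genes. Ctsd had 750 CPM in KO skin against 1974 in WT skin (ratio 0.38), Ctsl 257 against 653 (0.39) and Ctso 3.68 against 10.2 (0.36). Atp6v0d2 had 46.5 against 157 CPM (0.30), Atp6v0a4 8.23 against 19.9 (0.41), Atp6v1b2 314 against 699 (0.45) and Atp6v0c 727 against 1596 (0.46). Atp6v1b2 encodes the B2 subunit, which shares in ATP binding. For Ctsd and Ctsl, the clusters of KO skin reached at most 921 and 316 CPM and those of WT skin at least 1374 and 475. Here too the clusters are parts of the same matrix and not replicates. Ctsl, Ctso and Atp6v0a4 were also called lower in clones 3 and 4 of the cultures (Ctso and Ctsl in clone 2 too), and Ctsd in clone 3. Of all genes 14.1%, 20% and 17.2% were called lower in clones 2, 3 and 4. Atp6v1b2 and Atp6v0c were called in no clone. Atp6v0d2 was higher in clone 1, a call lost in 10 of 16 alternatives. Atp6v1a, higher in clones 3 and 4, had 411 CPM in KO skin against 427 in WT skin.

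In macrophage-like cells the same contrast took fewer members. Of 29 members, 1 was at least 2-fold higher and 2 were at least 2-fold lower, against 16.3% and 4.88% of all genes (21.2% in all). Ctsd had 2290 CPM in KO skin against 8594 in WT skin (ratio 0.27), and Ctsk 545 against 1231 (0.44). As between the classes, the Ctsk level of WT skin rests on 1 of 2 clusters. Atp6v0e2 had 61.0 against 27.9 CPM (2.18), and the melanocytic markers in these cells were also higher in KO skin, at 19842 against 9558 CPM. Ctsd was past 2-fold in all alternatives (0.30 to 0.34), whereas Ctsk (0.52 to 0.59) and Atp6v0e2 (0.97 to 1.72) were past 2-fold in none of the 4 that changed their values.

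Between sites of the knockout tumours, 5 of 28 members were at least 2-fold apart in melanocytic-like cells, against 14.3% of all genes. Of these 3 were higher in KO ocular and 2 lower, where 5.81% and 8.44% of all genes were. Higher in KO ocular were Atp6v0d2, with 127 CPM against 46.5 in KO skin (2.73), Atp6v1f, with 769 against 328 (2.35), and Atp6v0d1, for the widely expressed d1 subunit, with 374 against 162 (2.31). Ctsk had 77.6 CPM in KO ocular against 161 in KO skin (0.48, and 0.57 with the mean of per-cell CPM, which is not past 2-fold), and Ctss 24.2 against 108 (0.22). The macrophage markers together had 137 CPM in melanocytic-like cells of KO ocular against 202 in KO skin, and their part in the Ctss value was not tested. The median ratio was 1.37 for pump genes and 1.39 for cathepsins, against 0.907 for all genes. In macrophage-like cells 3 of 29 members were past 2-fold, all higher in KO ocular, against 14.2% of all genes (4.26% higher): Ctsd, with 5806 CPM in KO ocular against 2290 in KO skin (2.54), Atp6v0d1, with 446 against 199 (2.25), and Atp6v1f, with 543 against 266 (2.04).

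**Figure D5:**
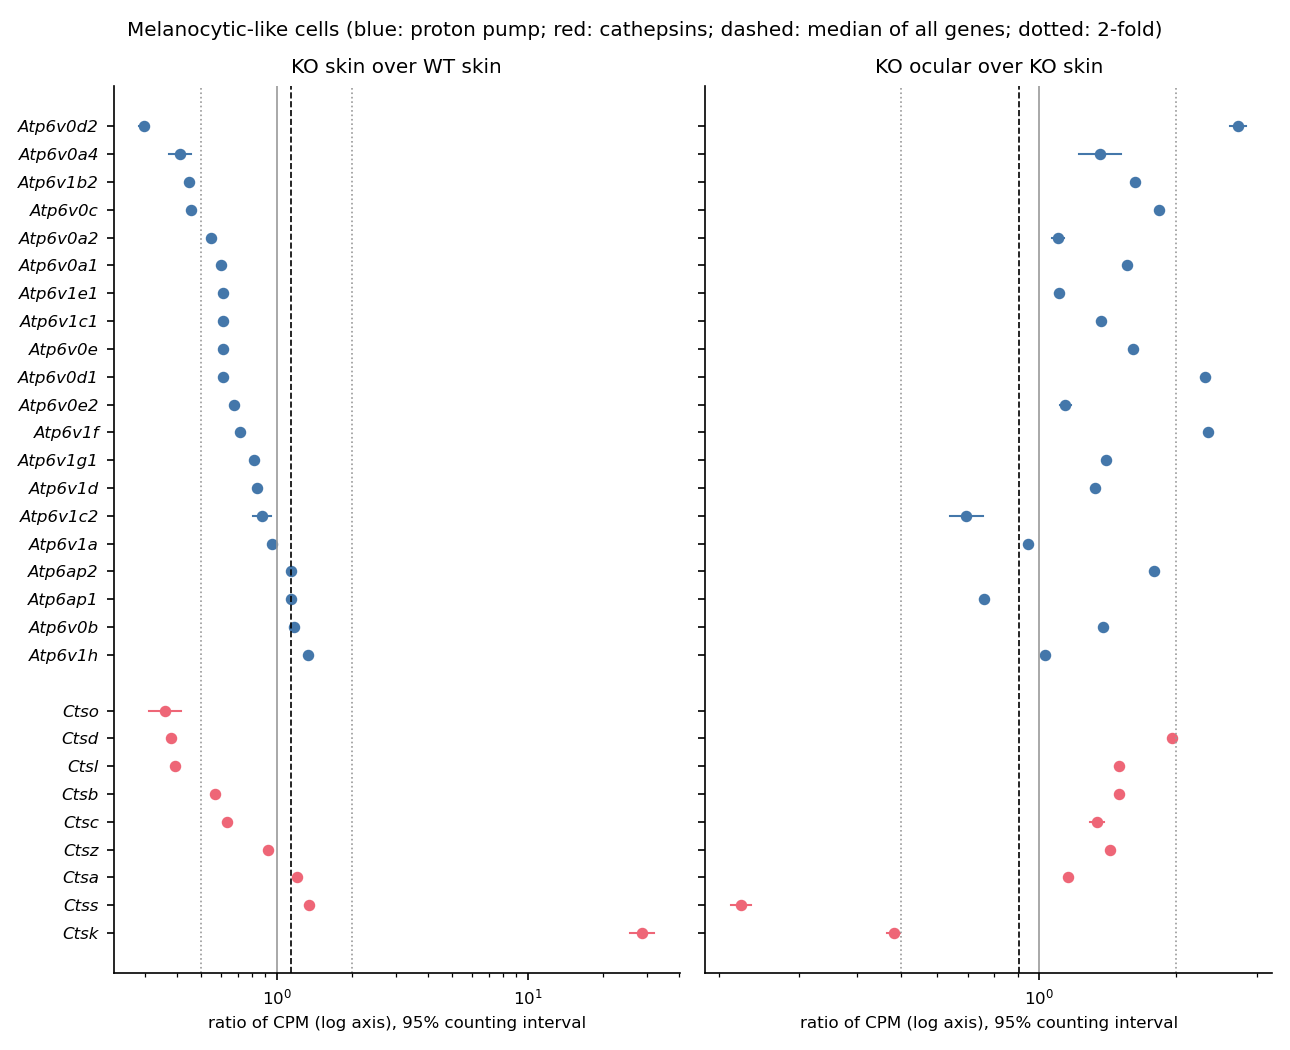
Ratio of CPM in melanocytic-like cells (x axis, log, with 95% counting interval) for KO skin over WT skin on the left and KO ocular over KO skin on the right, pump genes in blue above cathepsins in red. Most members lie left of the dashed median of all genes on the left (1.14) and right of it on the right (0.907), with Ctsk at 28.5 and 0.48.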

How the data were processed

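Bulk RNA-seq gave 10 libraries, 2 for each of 5 lines, from stranded polyA libraries per the labels' protocols. The authors deposited variance-stabilised values on a log2-like scale, per the file headers, and GRCm38 and mm10 are named in the submitters' processing notes. No label or header names the aligner or counter. The transform was inverted per library, and 100% of values came out as whole reads within 0.01. Genes were tested on the deposited log2-like values with limma 3.58.1 (R 4.3.3, trend, all 5 lines in 1 fit) if their mean lay at least 1 above the lowest value in the table, which marks 0 reads. Adjusted p-values under 0.05 were called. As an alternative, edgeR 4.0.16 was run on the recovered reads, as it was not the main result. Scripts were checked on simulated data.

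Single-cell UMI counts were deposited by the authors as Cell Ranger matrices, made with version 7.0.0 for WT ocular and 8.0.0 for the others per the file headers. Cells with at least 500 UMIs, at least 200 genes and at most 20% mitochondrial UMIs were kept (13111 in KO skin, 9398 in KO ocular, 11682 in WT skin and 26168 in WT ocular) and clustered per matrix with scanpy 1.11.5 (Leiden resolution 1.0), leaving out the members. Clusters were named from marker lists. The limits on mixed clusters were added after the clusters had been seen, and clusters best matched by melanocytic markers but kept out of the class by these rules held 5.93% of cells in KO skin, 9.52% in KO ocular, 19.0% in WT skin and 49.6% in WT ocular. Scrublet called 111 cells (1.18%) in KO ocular and 0 in the other matrices, where it did not work, and no doublet was removed. UMIs were summed per class, with exact Poisson intervals and folds with exact conditional intervals, for members with 10 CPM or more in the higher profile.

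Named members were those called with 1 sign in all clones, with a called difference of at least 1, with the 8 smallest F test p-values or the 5 highest parental levels, the 6 highest per class in single cells, those at least 2-fold apart between the skin matrices, and those at least 4-fold apart between classes in every matrix of 1 assay. In each pathway list the 3 genes with the smallest largest p over the clones were named. Other called members are named as well. Tfeb, Tfec and Tfe3 are named outside this rule and were added after their values had been seen. The members and lists were chosen with earlier results of these data known. Columns of other samples numbered 0. Promoter sequences came from RefSeq (GRCm38.p6). Genome and exome sequencing was not analysed here.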

Additional observations from a re-analysis of the deposited data

Results flagged for a closer look

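The effect relative to the parental line differed among the 4 clones for 12 of the 27 tested members (limma F test, adjusted over 10803 genes). Of all genes 44.5% passed, so the members differed among the clones about as often as other genes. Among the cathepsins the adjusted p was 6.17e-05 for Ctsc, 0.00139 for Ctsl, 0.00401 for Ctso, 0.0391 for Ctsa, 0.03996 for Ctsz and 0.0428 for Ctsb. Clone 4 stood apart for Ctsc, clone 1 for Ctsl and Ctso, and clone 4 for Ctsa, Ctsz and Ctsb, where it was the highest. Among the pump genes the adjusted p was 0.000442 for Atp6v0a4, 0.00398 for Atp6v1g2, 0.011 for Atp6v1d, 0.0148 for Atp6v0e2, 0.019 for Atp6v0d2 and 0.0249 for Atp6v1a. Atp6v0a4 was lowest in clones 3 and 4, Atp6v1g2 in clone 2 and Atp6v0e2 in clones 2 and 3, while Atp6v1d and Atp6v1a were highest in clone 4 and Atp6v0d2 in clone 1. The causes were not tested.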

How the results depend on the processing

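Quantile normalisation gave 2 called members in clone 1 and 8 in clone 2. No filter on low values gave 2 in clone 1, and 1 member, Ctsf, with 1 sign in all 4 clones. edgeR's quasi-likelihood test gave 0 called in clone 1, with either its own or DESeq2-type size factors. Leaving out 1 library gave 0 to 1 called in clone 1, 0 to 8 in clone 2, 4 to 13 in clone 3 and 4 to 10 in clone 4, and 7 to 14 that differed among the clones. The lowest counts came without a parental culture or without a culture of the clone itself, except 0 in clone 1, which also came without a culture of clone 2 or 3. The highest for clone 2 came without a culture of clone 4. Replicate numbers were not used as pairs in the main fit. Correlations between lines of the difference between culture 1 and culture 2 lay between -0.128 and 0.727, with 5 of 10 over 0.1. Some lines thus shared part of that difference, and its source was not tested. The replicate block gave 1, 6, 10 and 9 called in clones 1 to 4 and 12 among clones. In macrophage-like cells of KO skin over WT skin, 1 member was past 2-fold at Leiden resolution 0.5, with at least 1000 UMIs per cell and without the 5% highest doublet scores, and Atp6v0e2 reversed to 0.971 at resolution 0.5. For single members, 1025 values kept their side, 64 lost and 21 gained a call, and 121 moved. The causes were not tested. WT ocular has no melanocytic-like class, so its alternatives were run against the cluster with the highest melanocytic marker level, a choice made after seeing the data, and each gave 3 members past 4-fold.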
